A study of Mus musculus with 12 samples.

Results

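Potassium channel genes, taken here as every gene whose symbol begins with Kcn apart from Kcnj8 and Kcnj11, were measured in mesenchymal cells of the mouse uterus. Symbols were found from the Ensembl gene identifiers, and 97 of the 47729 genes in the count table met that definition. They comprise 92 protein-coding genes of 21 subfamilies and 5 antisense noncoding transcripts named after a channel gene. Kcnj8 and Kcnj11, the pore subunits of ATP-sensitive channels, were left aside by that definition.

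The cells came from healthy uteri of cycling female Pdgfrb-BAC-eGFP mice, in which a bacterial artificial chromosome with the Pdgfrb regulatory region drives green fluorescent protein. Naive libraries (6) hold GFPtotal cells, that is, GFP-high perivascular cells together with GFP-low stromal fibroblasts. Stromal libraries (6) hold the GFP-low cells alone, which the sample labels call GFPdim. Both groups carry the reporter, neither was treated, and no age or cycle stage was stated. In which proportions Naive mixes both kinds is not stated. The study used this comparison to infer the profile of the GFP-high cells. No label ties a library to 1 mouse, so the p-values rest on the spread among libraries alone, part of which may be technical.

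Potassium channels let potassium leave the cell, which holds the membrane potential negative and keeps voltage-gated calcium channels closed. In smooth muscle and pericytes this relaxes the cell, and in the myometrium it quiets contraction. Pore-forming subunits differ in what opens them: voltage (Kcna to Kcnd, Kcnh, Kcnq), calcium (Kcnma, Kcnn) or sodium (Kcnt). The inward rectifiers (Kcnj) and the tandem-pore background channels (Kcnk) belong to none of these groups. Some of them respond to other signals, such as G proteins (Kcnj3) or membrane stretch, heat and lipids (Kcnk2). Silent subunits (Kcng, Kcns, Kcnv) and ancillary proteins (Kcnab, Kcne, Kcnip, Kcnmb) change how the pores open or where they go.

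Total counts were 12631266 to 14950639 per Naive library and 14339804 to 18425596 per Stromal library. Pdgfrb was called higher in Naive libraries, at 114.3 ± 36.0 against 65.1 ± 15.0 CPM (counts scaled to a common library size) in Stromal libraries (SD, n = 6 each; adjusted p = 0.0305; exact permutation p = 0.00866, where the smallest possible is 0.00216). That call was lost without Naive 3, 4 and 5 (log2 fold change 0.64, adjusted p = 0.207), without any of 7 single libraries (adjusted p = 0.0576 to 0.0789) and when scaled by total counts (adjusted p = 0.0814). Summed pericyte markers stood at 865 to 1521 CPM in Naive libraries and 4.12 to 16.7 CPM in Stromal libraries, and summed smooth muscle markers at 423 to 705 CPM in Naive and 274 to 387 CPM in Stromal libraries. Within Naive, replicates 3, 4 and 5 had 1246 to 1521 CPM of pericyte and 593 to 705 CPM of smooth muscle markers. Replicates 1, 2 and 6 had 865 to 1176 CPM and 423 to 466 CPM. Synpo2 had the highest mean of the smooth muscle markers, at 299 CPM in Naive and 294 CPM in Stromal libraries. Synpo2, Des and Tagln were not called, while Acta2, Myh11 and Actg2 were called higher. Acta2 averaged 57.0 CPM in Naive and 1.75 CPM in Stromal libraries, and Myh11 132 and 3.10 CPM. Summed fibroblast markers stood at 19100 to 32033 CPM in Naive and 12205 to 18504 CPM in Stromal libraries, with 1 of 7 called higher (Col3a1, adjusted p = 0.00782). Naive 3, 4 and 5 had 19100 to 22735 CPM of them and Naive 1, 2 and 6 29404 to 32033 CPM. Col1a1 and Col3a1 had the highest means, at 10586 and 11267 CPM in Naive and 5998 and 6981 CPM in Stromal libraries. Log2 fold changes were 0.16 to 0.39 for Dpt, Lum, Pdgfra and Dcn, 0.82 for Col1a1 and 1.42 for Fbln1, all without a call. Endothelial markers summed to 32.9 to 58.0 CPM in Naive and 39.6 to 59.6 CPM in Stromal libraries, with Cdh5 called lower (log2 fold change −1.67, adjusted p = 0.0374) and Cldn5 at 0 throughout. Neuron, leukocyte, and Schwann cell and glia markers each summed to at most 4.99 CPM in any library, with Foxd3 at 0 throughout. Epithelial markers summed to 0.713 to 11.7 CPM in Naive and 6.19 to 9.68 CPM in Stromal libraries. Markers of interstitial cells of Cajal summed to 72.6 to 121 CPM in Naive and 46.4 to 150 CPM in Stromal libraries. Mesothelial markers summed to 43.2 to 79.5 CPM and 71.6 to 101 CPM, with Msln and Upk3b at 0 throughout. Of these last lists, 0 genes were called. Naive 3, 4 and 5 stood apart from all other libraries on the first principal component of all genes, at 102 to 107 against at most 6.66 elsewhere. Stromal 5 lay apart on the second, at −86.6 against −26.2 to 51.9. The count column of Stromal 6 carries the name N8 in its file header, where the other 11 files name their own library. The 16.7 CPM of summed pericyte markers in Stromal 6 was the highest of the Stromal libraries and far below every Naive library. The 4 called members are also given below without these libraries. In bulk libraries, fewer cells of a type and less RNA per cell cannot be told apart.

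Across the whole table, edgeR's quasi-likelihood F test called 785 of 14523 genes tested at an adjusted p below 0.05, which is 5.41%. Calls higher in Naive made up 4.55% (661 genes) and calls lower 0.854% (124 genes). Scaling by total counts instead gave 505 higher (3.48%) and 257 lower (1.77%), and 4 members higher. Of the 97 potassium channel genes, 27 passed the low-count filter and were tested. Of those, 4 were called higher in Naive libraries (14.8% of the tested members) and 0 lower. DESeq2 and limma-voom each called 6 members higher, where 7.11% and 4.65% of all genes were, and 0 lower, where 2.4% and 1.58% were. At an unadjusted p below 0.05, 9 members were higher and 1 lower by edgeR. The share of all genes at that unadjusted threshold was not worked out, so the 9 and 1 do not describe the family. The genes called higher were the sodium-activated channel gene Kcnt2, the background channel gene Kcnk2, the beta subunit gene Kcnab1 and the ancillary subunit gene Kcne4. A gene that passes the filter through its level in Naive alone has to differ, so the share of members called describes the genes that passed and not the family. The replicate block called 3 members higher (3.39% of all genes), and leaving out Stromal 1, 5 or 6 gave 6, 5 or 3 (4.58%, 4.46% or 3.62% of all genes). Without Naive 3, 4 and 5, edgeR called 0 of 32 tested members (295 of 15703 genes, or 1.88%). At an unadjusted p below 0.05, 8 members were higher and 3 lower in that fit, again without a share of all genes beside them.

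The bases before the transcription start are shown for Kcnt2, Kcnk2 and Kcnab1, the 3 members whose call held on leaving out any 1 library. The sequences are RefSeq's on GRCm38.p6, 250 bases on the gene's strand, 5′ to 3′. Where RefSeq lists more than 1 start, the window before the start nearest to the gene's start in the count files was taken, and windows that met an exon of the count files were passed over (Kcne4 among them). Kcnt2 lies on the plus strand at chr1:140245468-140245717, Kcnk2 on the minus strand at chr1:189402274-189402523 and Kcnab1 on the plus strand at chr3:65108764-65109013. Capitals mark CATTCC, a binding sequence of TEAD factors, on either strand.
Kcnt2: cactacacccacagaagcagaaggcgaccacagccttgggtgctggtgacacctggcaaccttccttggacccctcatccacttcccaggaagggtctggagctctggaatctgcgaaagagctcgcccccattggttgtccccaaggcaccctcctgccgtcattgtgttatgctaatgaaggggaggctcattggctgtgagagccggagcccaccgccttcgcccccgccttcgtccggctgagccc
Kcnk2: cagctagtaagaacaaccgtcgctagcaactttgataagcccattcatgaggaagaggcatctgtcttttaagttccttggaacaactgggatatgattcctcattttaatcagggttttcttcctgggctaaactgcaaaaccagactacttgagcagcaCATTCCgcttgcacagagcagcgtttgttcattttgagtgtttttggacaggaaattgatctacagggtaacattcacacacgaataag
Kcnab1: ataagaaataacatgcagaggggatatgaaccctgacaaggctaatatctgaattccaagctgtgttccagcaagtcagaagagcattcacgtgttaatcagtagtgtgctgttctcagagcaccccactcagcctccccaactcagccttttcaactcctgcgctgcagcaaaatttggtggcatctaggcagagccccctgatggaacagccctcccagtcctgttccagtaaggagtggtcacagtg

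Kcnk2 held 1 match to CATTCC, and 12.6% of 32817 such windows of all genes held at least 1. TATAAA (either strand, 12.4% of windows) and the CArG box of serum response factor (1.47% of windows) were each absent from the 3 windows. A match or its absence describes these letters only. The windows differed in composition: G and C made up 61.6% of the Kcnt2 window, 42.4% of the Kcnk2 window and 50% of the Kcnab1 window, against a median of 52.4% over all windows. The RefSeq start lay 440 bases from the gene's start in the count files for Kcnt2, 370 for Kcnab1 and 0 for Kcnk2. Only for Kcnk2 were the bases after that start found in a GENCODE M21 transcript of the gene. Gene-level counts do not show which start was used.

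Kcnt2 (ENSMUSG00000052726, chromosome 1, 140246158 to 140612067, GRCm38) encodes a channel opened by intracellular sodium and chloride. Its level per exon length was the highest of all 97 members in the mean over 12 libraries, at 17.0 ± 7.30 reads per kilobase and library unit (RPKM, the CPM divided by exon length in kilobases) in Naive and 7.06 ± 1.79 RPKM in Stromal libraries (SD, n = 6 each). In CPM the Naive libraries ran from 62.6 through a median of 115 to 191, and the Stromal libraries from 33.1 through 45.4 to 68.0. Naive 3, 4 and 5 were the highest at 125 to 191 CPM, Naive 1, 2 and 6 lay at 62.6 to 106 CPM, and the groups overlapped because Stromal 3 exceeded Naive 1 and 2. On the log2 scale Naive exceeded Stromal by 1.27 (SE 0.26, adjusted p = 0.00888). Without Naive 3, 4 and 5 this difference was 0.66 (adjusted p = 0.224).

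Kcnk2 (ENSMUSG00000037624, chromosome 1, 189207930 to 189402273) encodes a tandem-pore background channel that responds to membrane stretch, heat and lipids. Its Naive libraries ran from 30.9 through a median of 34.7 to 43.6 CPM (mean 35.6 ± 4.49, SD, n = 6), and its Stromal libraries from 5.25 through 11.9 to 21.8 CPM (mean 13.2 ± 6.93, SD, n = 6). Every Naive library lay above every Stromal library, and Naive 3, 4 and 5 (34.3 to 43.6 CPM) overlapped Naive 1, 2 and 6 (30.9 to 37.2 CPM). The log2 difference came to 1.43 (SE 0.31, adjusted p = 0.0105). Leaving out Naive 3, 4 and 5 gave 1.32 with an adjusted p of 0.0970. Of its exonic bases, 12.2% are shared with the opposite-strand gene A430027H14Rik, which had 47 counts in all Naive and 13 in all Stromal libraries. The counting did not use strand, so reads of such pairs cannot be told apart.

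Kcnab1 (ENSMUSG00000027827, chromosome 3, 65109384 to 65378223) encodes a cytoplasmic beta subunit of Shaker-type voltage-gated channels with an aldo-keto reductase fold. Naive libraries ran from 13.0 through a median of 37.8 to 65.9 CPM, and Stromal libraries from 6.19 through 12.2 to 19.2 CPM. Naive 1 fell within the Stromal range, and the 5 other Naive libraries lay above it. Naive was higher by 1.62 in log2 terms (SE 0.35, adjusted p = 0.0102), and by 1.17 without Naive 3, 4 and 5 (adjusted p = 0.155). The Kcna pores to which this subunit binds were near the limit of detection: none of 8 Kcna genes was tested, 4 had no count, and the 4 others summed to 172 counts over 12 libraries. Kcna5, a delayed rectifier of vascular muscle, had 37 counts in Naive and 2 in Stromal libraries, of which 31 lay in Naive 3. Among the other beta subunit genes, Kcnab3 had 103 counts in Naive and 20 in Stromal libraries without passing the filter, and Kcnab2 had 3 counts in all.

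Kcne4 (ENSMUSG00000047330, chromosome 1, 78816758 to 78820028) encodes an ancillary subunit with a lone membrane span that damps several voltage-gated channels. Its level was low, at 1.13 through a median of 1.95 to 2.50 CPM in Naive libraries and 0 through 0 to 0.569 CPM in Stromal libraries. Counts stood at 14 to 39 per Naive library. In Stromal libraries they were 9 in Stromal 1 and 5 in Stromal 5 and 0 in the other 4. The groups did not overlap, but the gene passed the low-count filter through its Naive libraries alone, so some difference was built in. Its fitted log2 difference was 3.56 (SE 0.99, adjusted p = 0.0433), and 4.65 without Stromal 1. The call held without Stromal 1 or Stromal 5 and was lost on leaving out any other single library (adjusted p = 0.0520 to 0.103) or Naive 3, 4 and 5 together (3.38, adjusted p = 0.278). It was also lost with the replicate block (adjusted p = 0.0609) and without the low-count filter (adjusted p = 0.0748). Under a stricter filter Kcne4 was not tested. Of the 4 other Kcne genes, Kcne3 had 36 counts, of which 32 were in Stromal 3, Kcne1l had 2, and Kcne1 and Kcne2 had none.

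Without Stromal 6, the library whose header names N8, the log2 fold changes were 1.17 for Kcnt2 (adjusted p = 0.0243), 1.46 for Kcnk2 (adjusted p = 0.0221) and 1.47 for Kcnab1 (adjusted p = 0.0231). Kcne4 stood at 3.29 there and lost its call (adjusted p = 0.0885). Without Stromal 5 all 4 calls held, with 1.23 for Kcnt2 (adjusted p = 0.0220), 1.63 for Kcnk2 (adjusted p = 0.00565), 1.61 for Kcnab1 (adjusted p = 0.0225) and 3.97 for Kcne4 (adjusted p = 0.0477). Of 10 pericyte markers, 6 were tested and 6 called higher, at a median log2 fold change of 4.88 in the same fit. Of 8 smooth muscle markers, 6 were tested and 3 called higher, at a median of 3.37. Over all tested genes, 4.55% were called higher. Markers near 0 in Stromal libraries, such as Mcam and Cspg4 (means of 0.425 and 0.534 CPM), passed the low-count filter through Naive. Some difference was thus built in, and these medians are no measure for the channel genes. The part of the pericyte, smooth muscle, fibroblast and endothelial markers in the channel gene differences was not tested.

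**Figure D1:**
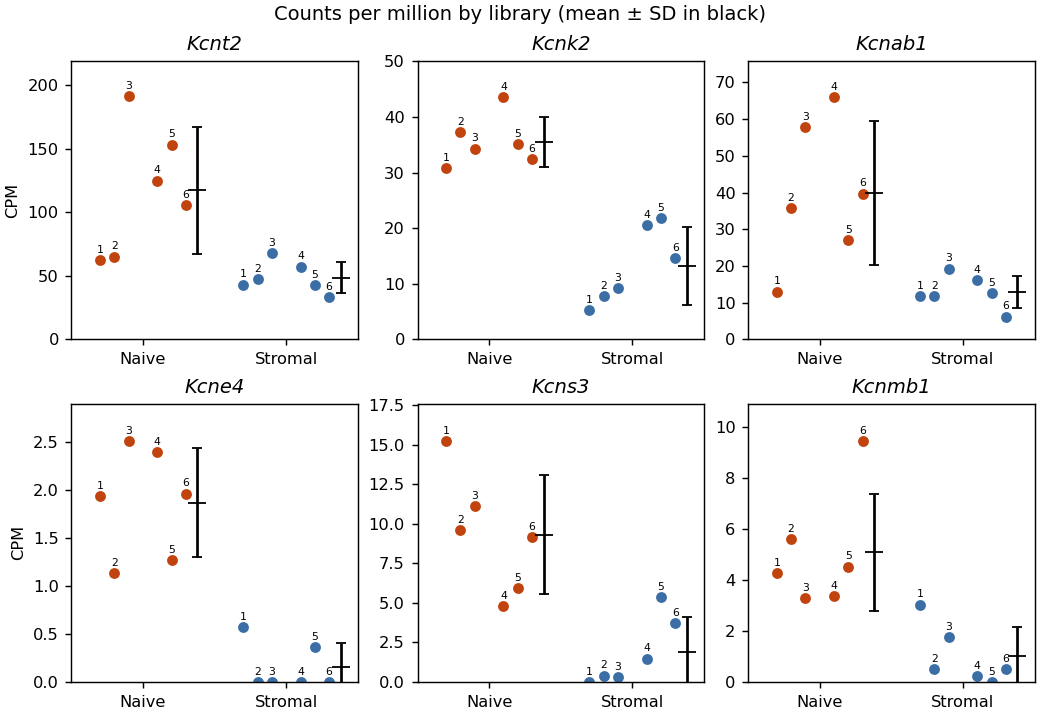
CPM (vertical axes, each starting at 0) of Kcnt2, Kcnk2, Kcnab1, Kcne4, Kcns3 and Kcnmb1 in the 6 Naive and 6 Stromal libraries, numbered by replicate. Black marks are the group mean ± SD, with bars cut off at 0. The groups do not overlap for Kcnk2, Kcne4 and Kcnmb1, and Naive 3, 4 and 5 are the highest libraries for Kcnt2 at 125 to 191 CPM.

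Calcium-activated channels include Kcnn3, the coding member with the most counts. This small-conductance channel is opened through calmodulin and is known in the mouse uterus for restraining contraction. It averaged 12.2 ± 2.86 RPKM in Naive and 7.82 ± 3.38 RPKM in Stromal libraries (SD, n = 6 each). By library it ran from 97.5 through a median of 127 to 160 CPM in Naive and from 58.4 through 62.0 to 145 CPM in Stromal. Naive 3, 4 and 5 formed a tight upper set at 151 to 160 CPM, and Naive 1, 2 and 6 another at 97.5 to 103 CPM. Stromal 1, at 145 CPM, and Stromal 3, at 104 CPM, lay between them, so the groups overlap without Stromal 1 too. The difference of 0.64 in log2 terms (SE 0.24) missed the threshold (adjusted p = 0.137). Leaving out Stromal 1 gave 0.88 and a call (adjusted p = 0.0199), while leaving out Naive 3, 4 and 5 gave 0.28 (adjusted p = 0.751). Kcnn2, another small-conductance channel gene, was low, with medians of 1.44 CPM in Naive and 0.726 CPM in Stromal libraries, without a call (log2 fold change 0.91, adjusted p = 0.503). Kcnn1 had 47 counts and Kcnn4 had 2. Together Kcnn3 and Kcnt2 supplied 38.1% to 62.1% of the counts of all coding members in each library.

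The large-conductance calcium-activated channel is built from the pore gene Kcnma1 and, in smooth muscle, the beta subunit gene Kcnmb1, which raises its calcium sensitivity. Kcnmb1 stood at 5.08 ± 2.30 CPM in Naive and 1.01 ± 1.17 CPM in Stromal libraries (SD, n = 6 each). The lowest Naive library, at 3.29 CPM, was above the highest Stromal library, Stromal 1 at 3.04 CPM. A log2 difference of 2.33 (SE 0.75) did not pass edgeR's test (adjusted p = 0.0833). DESeq2 and limma-voom called it (adjusted p = 0.0131 and 0.0218), as did edgeR without Stromal 1 (3.06, adjusted p = 0.0264). Kcnma1 averaged 8.85 ± 3.95 CPM in Naive and 4.79 ± 3.60 CPM in Stromal libraries, and the groups overlapped (log2 difference 0.89, SE 0.48, adjusted p = 0.325). Without Naive 3, 4 and 5 the difference was 0.39 (adjusted p = 0.868). The other beta subunit genes were not tested. Kcnmb2 had 100 counts in Naive and 14 in Stromal libraries, 65 of them in Naive 3. Kcnmb4, which shares 31.5% of its exonic bases with opposite-strand transcripts, had 84 counts in Naive and 52 in Stromal libraries. Kcnmb3 had 13 counts in Naive and 30 in Stromal libraries.

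The CPM of the Naive libraries lay wholly above those of the Stromal libraries for 3 of the 27 tested members (Kcnk2, Kcne4 and Kcnmb1), where 2.86% of all tested genes did. For 0 members did Stromal lie wholly above Naive, where 0.806% of all tested genes did. Kcne4 and Kcnmb1 passed the low-count filter through their Naive libraries, so the count of 3 describes the genes that passed and not the family. The sodium-activated relative Kcnt1 had 4 counts in Naive and 21 in Stromal libraries, and Kcnu1, known as a sperm channel gene, stood at 3.37 ± 3.48 CPM in Naive and 1.38 ± 1.87 CPM in Stromal libraries (log2 fold change 1.28, adjusted p = 0.522). Kcnu1 was at 3.74 to 8.98 CPM in Naive 3, 4 and 5, at 0.324 to 0.891 CPM in Naive 1, 2 and 6, and at 5.05 CPM in Stromal 6. Its log2 fold change was −1.25 without Naive 3, 4 and 5, and 2.37 without Stromal 6 (adjusted p = 0.770 and 0.228).

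Among voltage-gated pores, Kcnd1, an A-type channel gene, was the most abundant per length at 2.71 ± 0.972 RPKM in Naive and 3.51 ± 1.13 RPKM in Stromal libraries. Naive libraries lay at 6.79 through a median of 13.8 to 22.1 CPM, and Stromal libraries at 11.6 through 17.6 to 27.2 CPM. The ranges overlapped widely, and the difference, −0.37 on the log2 scale (SE 0.29), missed the threshold (adjusted p = 0.534). Kcnd3 (−0.71, adjusted p = 0.637) was carried in Stromal by Stromal 1 at 9.87 CPM and Stromal 5 at 5.89 CPM. Kcnd2 did not pass the filter, with 273 counts in Naive, almost all in Naive 3, 4 and 5 (56, 98 and 117), and 107 in Stromal libraries. Calcium-binding partners of these channels are encoded by the Kcnip genes. Kcnip3, also known as a transcriptional repressor, stood at 3.93 through 6.83 to 10.3 CPM in Naive and 4.49 through 8.79 to 16.9 CPM in Stromal libraries (log2 fold change −0.40, adjusted p = 0.590). Kcnip4 averaged 5.56 ± 2.99 CPM in Naive and 4.45 ± 1.57 CPM in Stromal libraries (log2 fold change 0.32, adjusted p = 0.729).

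The silent subunit gene Kcns3 makes a protein that joins Kcnb delayed rectifiers and slows them. It ran from 4.79 through a median of 9.40 to 15.2 CPM in Naive libraries and from 0 through 0.936 to 5.38 CPM in Stromal libraries. Stromal 5, at 5.38 CPM, and Stromal 6, at 3.75 CPM, were the highest of their group, and Stromal 5 exceeded Naive 4. Its log2 difference of 2.30 (SE 0.79) was not enough for a call by edgeR (adjusted p = 0.111). DESeq2 and limma-voom called it (adjusted p = 0.0192 and 0.0175), as did edgeR without Stromal 5 (2.95, adjusted p = 0.0472). Kcnb2, a delayed rectifier gene, was uneven within Naive, at 1.29 to 8.29 CPM in Naive 3, 4 and 5 and at most 0.567 CPM in Naive 1, 2 and 6, while Stromal libraries spread from 0.118 to 18.0 CPM. The Kcnb2 difference was −1.01 on the log2 scale (adjusted p = 0.687), and −4.44 without Naive 3, 4 and 5 (adjusted p = 0.147). The difference within Naive was not tested.

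Of the remaining voltage-gated genes, none was called. Kcnh5, of the ether-a-go-go group, had 1.47 to 18.6 CPM in Naive libraries with Naive 5 at the top, and 0 to 5.60 CPM in Stromal libraries with Stromal 3 at the top (log2 fold change 1.84, adjusted p = 0.228). Without Naive 5 the Kcnh5 difference was 1.06 (adjusted p = 0.576), and without Stromal 3 it was 2.75 (adjusted p = 0.0848). Kcnh2, a channel gene of cardiac repolarization, had 1.06 ± 1.51 CPM in Naive and 2.50 ± 1.45 CPM in Stromal libraries (−1.25, adjusted p = 0.464). Kcnh1 had 64 counts in Naive libraries, 52 of them in Naive 1, and 0 in all Stromal libraries. The silent subunit gene Kcnv2 had 1.92 ± 1.04 CPM in Naive and 0.877 ± 1.35 CPM in Stromal libraries (log2 fold change 1.14, adjusted p = 0.565), and without Stromal 5 its difference was 2.47 (adjusted p = 0.150). The silent Kcng and Kcnf genes were not tested: Kcng4 had 26 counts in Naive and 54 in Stromal libraries, 53 of those 54 in Stromal 1, and Kcnf1 had 2 in all. Kcnrg, a soluble protein gene that hinders assembly of voltage-gated subunits, averaged 1.75 ± 1.33 CPM in Naive and 0.580 ± 0.419 CPM in Stromal libraries (log2 fold change 1.57, adjusted p = 0.308).

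**Figure D2:**
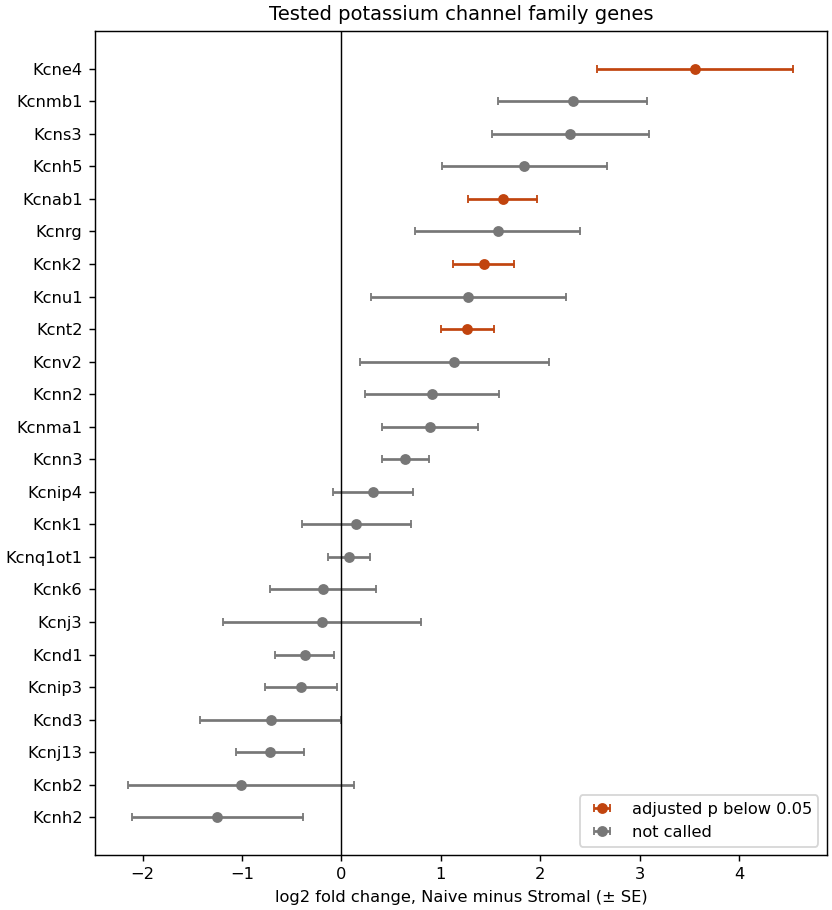
Log2 fold change, Naive minus Stromal, with its SE (horizontal axis) for 24 of the 27 tested potassium channel family genes, sorted by value. Red points mark the 4 genes with an adjusted p below 0.05, Kcne4 at 3.56, Kcnab1 at 1.62, Kcnk2 at 1.43 and Kcnt2 at 1.27. Kcnmb1 and Kcns3, at 2.33 and 2.30, were not called. Their errors are wider than those of Kcnab1, Kcnk2 and Kcnt2 and narrower than that of Kcne4.

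The inward rectifier with the highest level was Kcnj13, a weakly rectifying channel gene of transporting epithelia, at 5.83 ± 1.85 RPKM in Naive and 9.61 ± 4.11 RPKM in Stromal libraries. Its Naive libraries spanned 3.56 through a median of 7.69 to 10.1 CPM and its Stromal libraries 6.61 through 11.7 to 20.7 CPM, with overlap. Its difference, −0.72 in log2 terms (SE 0.34), had the only unadjusted p below 0.05 in that direction and was not called (adjusted p = 0.250). Of its exonic bases, 49.1% are shared with Gigyf2 on the opposite strand, which stood at 107 ± 18.2 CPM in Naive and 132 ± 11.6 CPM in Stromal libraries (log2 fold change −0.30, adjusted p = 0.243), so its reads and those of Gigyf2 cannot be told apart. Kcnj3, a G-protein-gated subunit gene, was at 0.368 to 2.46 CPM in Naive 3, 4 and 5, at 0 in Naive 1, 2 and 6, and at 0.377 to 1.33 CPM in Stromal libraries. Its adjusted p was 0.942 with all libraries and 0.0800 without Naive 3, 4 and 5. Kcnj2, the strong rectifier of vascular cells, had 41 counts in Naive libraries, 33 of them in Naive 2, and 0 in all Stromal libraries. Kcnj15 had 121 counts in Naive and 29 in Stromal libraries and did not pass the filter. Of the 13 Kcnj genes, 4 had no count and 4 more had 1 to 6.

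Among tandem-pore genes other than Kcnk2, Kcnk1 had a level of 4.91 ± 2.87 RPKM in Naive and 4.41 ± 3.92 RPKM in Stromal libraries, with a wide spread. It ranged from 2.40 through 13.5 to 19.5 CPM in Naive and from 2.83 through 6.59 to 27.4 CPM in Stromal libraries, with Stromal 5 the highest of all. A log2 difference of 0.15 resulted (SE 0.55, adjusted p = 0.919), and its sign turned without Naive 6 or Stromal 4. Kcnk6 averaged 3.26 ± 1.52 CPM in Naive and 3.70 ± 2.44 CPM in Stromal libraries (−0.19, adjusted p = 0.893). Kcnk5 had 40 counts in Naive and 90 in Stromal libraries, 52 of them in Stromal 6. Kcnk3, an acid-sensitive channel gene of pulmonary artery muscle, had 7 counts in all, and 6 of the 14 Kcnk genes had none.

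The noncoding transcript Kcnq1ot1 took 71.8% of all counts of the 97 members. It is an imprinted RNA made antisense to Kcnq1 that silences neighbouring genes on the paternal chromosome, and the count files give it 84395 exonic bases. Its level per length was 11.1 ± 3.80 RPKM in Naive and 10.5 ± 2.19 RPKM in Stromal libraries, next to that of Kcnt2 and Kcnn3. Naive libraries ran from 544 through 888 to 1357 CPM and Stromal libraries from 621 through 861 to 1167 CPM, and the highest were Naive 2 and Naive 1. Within Naive, replicates 3, 4 and 5 had 544 to 905 CPM and replicates 1, 2 and 6 had 871 to 1357 CPM. The log2 difference was 0.079 (SE 0.21, adjusted p = 0.885), and −0.053 when scaled by total counts. Kcnq1 itself had 17 counts over all libraries, of which 7 were in Naive and 10 in Stromal.

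**Figure D3:**
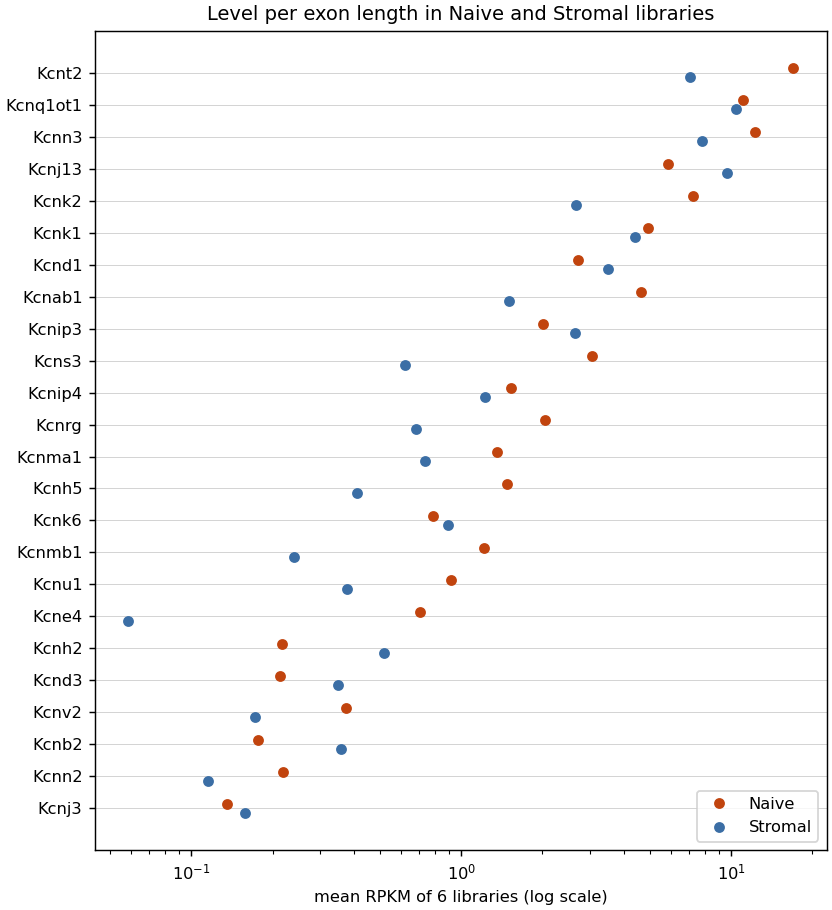
Mean RPKM (log axis) over 6 Naive libraries (red) and 6 Stromal libraries (blue) for 24 of the 27 tested members, ordered by their mean over all libraries. Kcnt2, Kcnq1ot1 and Kcnn3 head the order, and Kcne4 at 0.702 RPKM in Naive and 0.0585 RPKM in Stromal shows the widest gap.

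In the order of mean level per length over all 12 libraries, the 10 most abundant members were Kcnt2, Kcnq1ot1, Kcnn3, Kcnj13, Kcnk2, Kcnk1, Kcnd1, Kcnab1, Kcnip3 and Kcns3, which spanned 12.0 to 1.83 RPKM. Within the groups the order of these 10 differed. In Naive it ran Kcnt2, Kcnn3, Kcnq1ot1, Kcnk2, Kcnj13, Kcnk1, Kcnab1, Kcns3, Kcnd1 and Kcnip3. In Stromal it ran Kcnq1ot1, Kcnj13, Kcnn3, Kcnt2, Kcnk1, Kcnd1, Kcnk2, Kcnip3, Kcnab1 and Kcns3. Of the 9 pairs of neighbours in the order over all 12 libraries, 8 in Naive and 6 in Stromal had overlapping intervals of mean ± SD. The exceptions were Kcnn3 over Kcnj13 in Naive, and Kcnj13 over Kcnk2, Kcnd1 over Kcnab1 and Kcnip3 over Kcns3 in Stromal. Kcnk2 itself stood at 7.20 ± 0.909 RPKM in Naive and 2.67 ± 1.40 RPKM in Stromal libraries. The 27 tested members had a median log2 fold change of 0.64, and 19 lay above 0, where the median over all 14523 tested genes was −0.00060 and 50.0% lay above 0. Of the tested members, 44.4% had a log2 fold change of at least 1 in size, where 16.8% of all tested genes did. Those members include the 4 called. The others were not called, with an SE from 0.75 (Kcnmb1) to 1.13 (Kcnb2). Genes were not matched for level, and the limit given above for the low-count filter holds here too, so these shares do not describe the family.

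The remaining 70 members were too sparse to test. No count was found in any library for 20 of them, which allows up to 0.0167 CPM over the 12 libraries, and 18 had 1 to 9 counts in all. Those without a count include Kcna3, a channel gene of lymphocytes, the cardiac ancillary gene Kcne1 and the G-protein-gated genes Kcnj5 and Kcnj6. The other 32 had 13 to 380 counts, often piled up in 1 library. Among the 27 with at least 20 counts, 12 (44.4%) had more than 50% of their counts in a single library, where 28.9% of 6360 other untested genes with 20 to 380 counts did. The libraries concerned were of both groups: Kcnh1 in Naive 1 (52 of 64 counts), Kcnj2 in Naive 2 (33 of 41), Kcnj10 in Naive 5 (19 of 22), Kcne3 in Stromal 3 (32 of 36) and Kcnk4 in Stromal 6 (20 of 30).

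**Figure D4:**
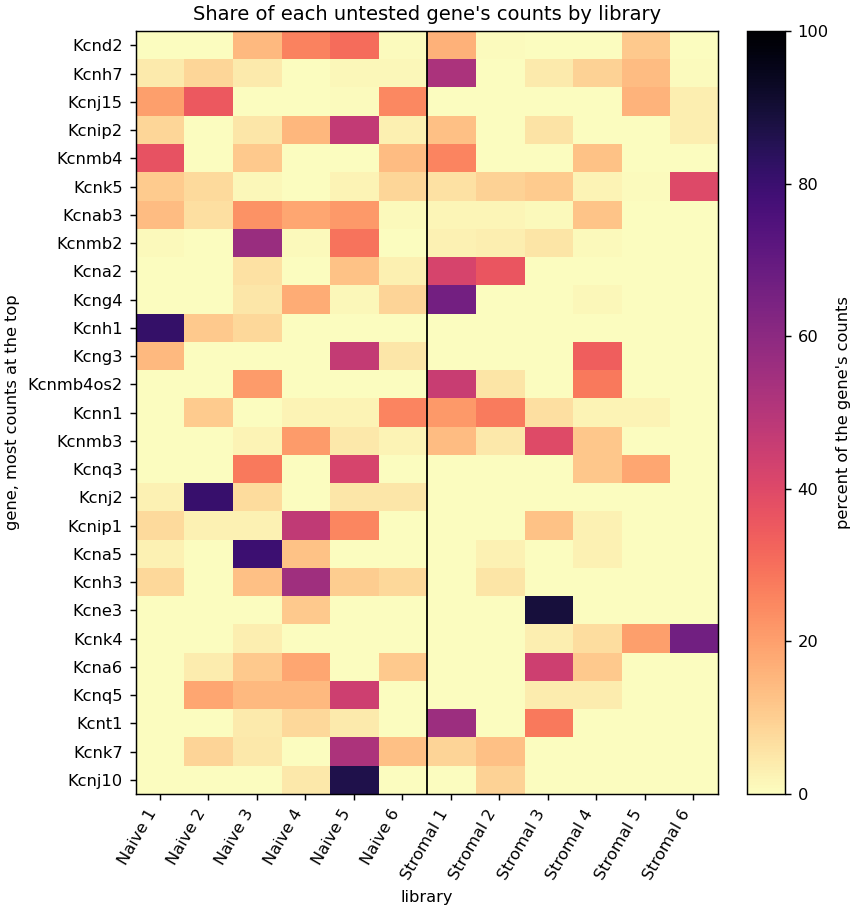
Share of each gene's raw counts (colour, percent) that fell in each library (columns, Naive left of Stromal) for the 27 untested members with at least 20 counts (rows, most counts at the top). Dark single cells show counts held by 1 library, such as 81.2% of Kcnh1 in Naive 1 and 88.9% of Kcne3 in Stromal 3.

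Proteins that work beside these channels but carry other symbols were described from 2 lists. Of 14 partners and related channels, 5 were tested, 1 was called higher and 0 lower in Naive libraries at a median log2 fold change of −0.06. The gene called higher was Tmem38b, a cation channel of the endoplasmic reticulum that offsets calcium release, at 11.6 ± 4.21 CPM in Naive and 2.72 ± 1.26 CPM in Stromal libraries (log2 fold change 2.09, SE 0.39, adjusted p = 0.00401). The large-conductance gamma subunit gene Lrrc55 had 1.02 ± 0.781 CPM in Naive and 4.64 ± 4.58 CPM in Stromal libraries (−2.19, adjusted p = 0.171, no call). Of 21 pump and cotransporter genes that set the potassium gradient, 12 were tested, 2 were called higher and 1 lower, at a median of 0.81. The sodium pump beta subunit gene Atp1b2 stood at 23.8 ± 12.4 CPM in Naive and 1.00 ± 1.08 CPM in Stromal libraries (log2 fold change 4.55, SE 0.66, adjusted p = 0.000765). The sodium-potassium-chloride cotransporter gene Slc12a2 stood at 97.3 ± 11.9 CPM in Naive and 42.8 ± 9.84 CPM in Stromal libraries (1.19, SE 0.17, adjusted p = 0.000593).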

How the data were processed

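The authors deposited raw counts, 1 per gene and library. By the file headers, paired fragments over exons were summed for the genes of Ensembl release 84 on GRCm38 with featureCounts 1.6.4, at a mapping quality of at least 10 and without strand, and files also list exon length. Fragments of overlapping or near-identical genes may have been lost or exchanged. Cutadapt and SAMtools appear in the submitters' processing notes. The aligner was not given. All 12 libraries agreed count for count between the series table and the files by library. Mitochondrial genes took 32.4% to 49.0% of counts.

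Symbols came from GENCODE M21 (47224 of 47729 genes). Low-count genes were dropped (filterByExpr), libraries were TMM-scaled, and genes were tested on all genes with edgeR 4.0.16 (R 4.3.3, quasi-likelihood, robust), Naive minus Stromal without covariate, with Benjamini-Hochberg adjustment and a threshold of 0.05. P-values are two-sided. The SE is the fold change's size divided by the root of F. CPM and RPKM use TMM-scaled library sizes. Floors (3 counts) cover counting error only. The method was tested on simulated data. Libraries of 1 group differed beyond sampling noise (chi-square per degree of freedom at least 19.5).

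Members and lists were chosen with earlier results of these data known. Values by library are given for called members and the 10 highest per length, and others by group or range. Some genes that these rules name are not reported here. Alternatives were DESeq2 1.42.0, limma-voom (limma 3.58.1), other scalings and filters, a replicate block, and left-out libraries.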

Additional observations from a re-analysis of the deposited data

Results flagged for a closer look

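Among 34 groups of 6 libraries (17 tested members, in Naive and in Stromal), 5 held a library whose gap to its nearest neighbour took an unusually large part of the group's range. The limit used flags about 1 in 20 groups of normally distributed values. The CPM of such low counts need not be so distributed, so the 5 cannot be set against that rate. Kcnh5 gave 2 of them, with Naive 5 at 18.6 CPM where the other Naive libraries lay at 1.47 to 5.61 CPM, and Stromal 3 at 5.60 CPM where the other Stromal libraries lay at 0 to 1.53 CPM. Naive 6 had 9.44 CPM of Kcnmb1, above the 3.29 to 5.59 CPM of the other Naive libraries. Stromal 5 stood apart for Kcnv2 at 3.57 CPM (others 0 to 0.597 CPM). Stromal 6 had 5.05 CPM of Kcnu1, where the other Stromal libraries had 0 to 1.31 CPM.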

How the results depend on the processing

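The number of members called higher was 3 to 6 on leaving out any 1 library and 3 to 6 under the other tools, scalings, filters and the replicate block, against 4. It was 0 without Naive 3, 4 and 5. Kcnt2, Kcnk2 and Kcnab1 were called under 20 of 21 alternatives each, all but that one, and Kcne4 under 7 of 20. The replicate block called 3 members, with Kcne4 not called at a log2 fold change of 4.58, and changed no other call. Same-numbered libraries did not deviate together (correlations −0.139 to 0.0892), and 2 of 6 Naive libraries correlated best with their own number. The median over tested members was 0.53 to 0.97 under all settings. The sign turned, without a call in any setting, for Kcnk1 (−0.076 to 0.74 on leaving out single libraries), Kcnu1 (−1.25 without Naive 3, 4 and 5) and Kcnq1ot1 (−0.053 with total library size, −0.059 to 0.19 on leaving out single libraries). On leaving out single libraries it also turned for Kcnk6 (−0.38 to 0.049), Kcnip4 (−0.0071 to 0.41) and Kcnj3 (−1.15 to 0.058), again without a call. The cause was not tested. The Pdgfrb log2 fold change was 0.64 without Naive 3, 4 and 5 and lost its call there (adjusted p = 0.207) as well as without 7 single libraries and with total library size (0.79, adjusted p = 0.0814). The 70 members that did not pass the count filter allow no comparison.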
